A study of Mus musculus with 6 samples.

Results

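Glycolysis splits glucose into pyruvate in the cytosol, the pentose phosphate pathway draws off glucose 6-phosphate for NADPH and ribose, and the tricarboxylic acid (TCA) cycle oxidizes the acetyl groups that the pyruvate dehydrogenase complex makes from pyruvate. Several steps have isozymes, enzymes of different genes that catalyse the same reaction. Mouse embryonic stem (ES) cells are known for rapid glycolysis with lactate release, and many glycolytic genes are targets of the hypoxia-inducible factors. A list of 39 genes was examined: glucose and lactate transporters, the enzymes of glycolysis and the regulators of phosphofructokinase, lactate dehydrogenases, pyruvate dehydrogenase and its kinases, and enzymes of the pentose phosphate pathway and the TCA cycle. A gene counted as measured if a probe set, the group of oligonucleotides that reports one transcript, carried its symbol alone in the platform annotation. This gave 36 genes with 82 probe sets, of 18193 genes and 45037 probe sets in all. Gpi1, Eno1 and G6pdx had no such probe set in the annotation table used and were not analysed here.

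The cells were EBRTcH3 mouse ES cells with an inducible human WBSCR1 transgene, whose mouse counterpart Eif4h encodes a translation initiation factor, under a promoter that tetracycline shuts off. RNA of the clones A1, A3 and A4 was hybridized once per clone and condition, after 24 h without tetracycline (induced, n = 3) and in medium with tetracycline (control, n = 3). Control cells carried the same transgene and tetracycline-regulated system, so that transgene expression and withdrawal of the drug cannot be told apart, and no line without the transgene was included. Each clone is a single derivation with 1 array in each condition, so a clone difference compares 3 cultures of clonal origin, and its p-value measures the spread between the arrays of a clone.

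Values are log2 signals of the robust multiarray average (RMA). Each gene is given by its brightest probe set, the one with the highest mean over the 6 arrays, and signals of different genes are not set against each other because probe sets differ in response. Array medians were 5.11 to 5.19 log2. The ES cell markers averaged 12.3 to 12.6 log2 per array. Of these, 0 of 8 passed the test between clones, where 5.13% of all genes were called higher in A3 and 6.32% lower. Esrrb came near the threshold, with both A3 arrays below all others. Its difference of A3 from the mean of A1 and A4 was -0.45 log2 (limma, SE 0.12, adjusted p = 0.0504). Of the fibroblast markers, 6 of 8 averaged below 5 log2. In these bulk samples, fewer cells of a type and less RNA per cell cannot be told apart. Of the 36 genes, 29 averaged at least 9 log2, and only Eno2 averaged below 5 log2. Bright probe sets included those of the pyruvate kinase gene Pkm (13.3 log2), Pgk1 (13.1 log2), Ldha (13.0 log2), Aldoa (13.0 log2) and the transketolase gene Tkt (12.8 log2).

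Between clones, 6 of the 15 measured genes of glycolytic enzymes and phosphofructokinase regulators and 1 of 2 lactate dehydrogenase genes were called higher in A3 than in A1 and A4, and 2 of 6 TCA cycle genes were called lower. Of the 36 measured genes, 7 were called higher in A3 (Ldhb, Aldoc, Pfkl, Pfkp, Tpi1, Eno2 and Pgk1) and 2 lower (Sucla2 and Ogdh) at an adjusted p under 0.05. That is 19.4% and 5.56% of the measured genes, where 5.13% and 6.32% of all 18193 genes were called higher and lower. Among all genes averaging at least 9 log2 the shares were 3.76% and 8.91%, and 5 of the 29 listed genes at that level were higher and 2 lower. All 7 higher genes belonged to the 23 measured genes of transport, glycolysis, lactate production and pyruvate dehydrogenase kinases, whose median difference was 0.273 log2. Both lower genes belonged to the 13 genes of pyruvate dehydrogenase, the pentose phosphate pathway and the TCA cycle, with a median of -0.00294 log2. The median was 0.123 log2 over the 36 genes and 0.0376 log2 over all genes.

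**Figure D1:**
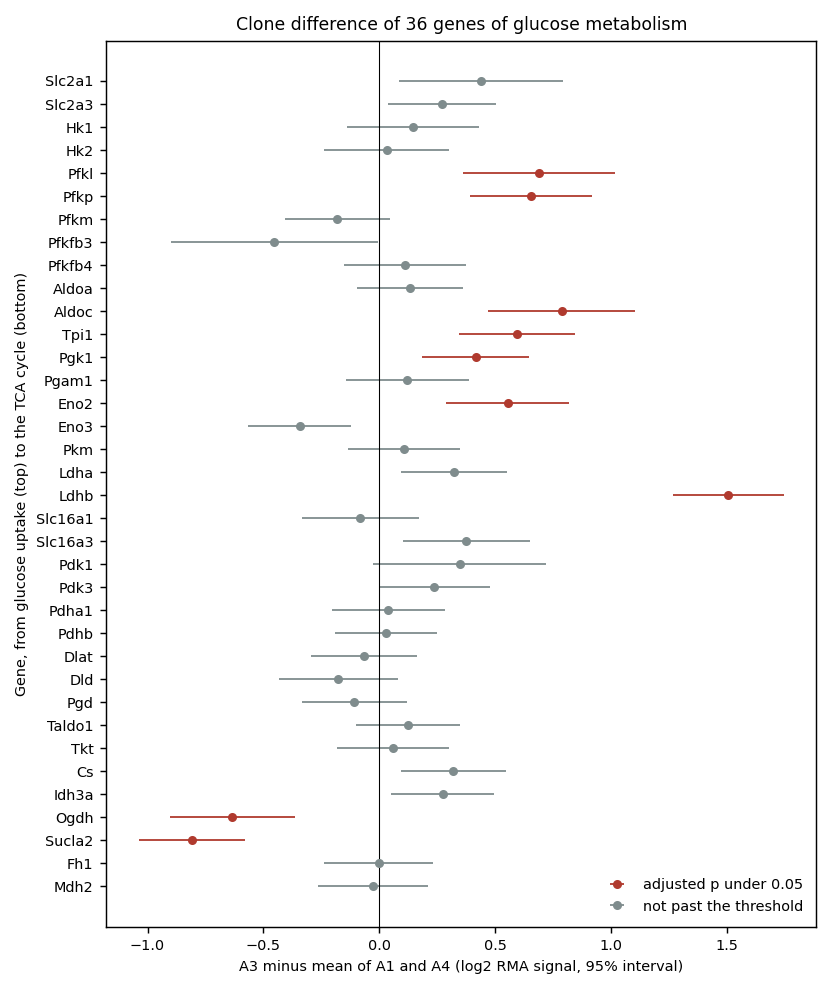
Difference between clones for 36 genes, ordered from glucose uptake at the top to the TCA cycle at the bottom. The horizontal axis is A3 minus the mean of A1 and A4 in log2 RMA signal, points are the estimates of limma and bars their 95% intervals, with red marking an adjusted p under 0.05: 7 red points lie right of 0, Ldhb farthest at 1.51, and 2 left of it, Sucla2 at -0.81 and Ogdh at -0.63.

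The largest difference was that of Ldhb, the heart-type lactate dehydrogenase subunit, which interconverts lactate and pyruvate. It read 12.06 and 12.25 log2 in the induced and control arrays of A3, against 10.32 and 10.39 in A1 and 10.98 and 10.91 in A4. The A3 arrays lay above all others, with A4 between A3 and A1. The difference of A3 from the mean of A1 and A4 was 1.51 log2 (SE 0.10, 2.84-fold, adjusted p = 0.000368), and all 4 Ldhb probe sets were called, at 1.51 to 1.58 log2. Ldha, the muscle-type subunit, read 13.27 and 13.25 log2 in A3, against 12.87 and 12.90 in A1 and 13.05 and 12.93 in A4. Its A3 arrays also lay above the rest, but the difference of 0.32 log2 did not pass the test (SE 0.10, adjusted p = 0.0862).

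Stretches of 250 bases before the annotated start were taken from RefSeq (GRCm38.p6) for Ldhb and for 4 further genes called between the clones, to show the letters around their starts. Capitals mark the core of the hypoxia response element, ACGTG or GCGTG, on either strand (CACGT or CACGC when read on the printed one). They lie at chr6:142507958-142508207 (minus strand) for Ldhb, chr11:78322823-78323072 (plus) for Aldoc, chr10:78009808-78010057 (minus) for Pfkl, chrX:106186850-106187099 (plus) for Pgk1 and chr14:73552536-73552785 (plus) for Sucla2.
Ldhb: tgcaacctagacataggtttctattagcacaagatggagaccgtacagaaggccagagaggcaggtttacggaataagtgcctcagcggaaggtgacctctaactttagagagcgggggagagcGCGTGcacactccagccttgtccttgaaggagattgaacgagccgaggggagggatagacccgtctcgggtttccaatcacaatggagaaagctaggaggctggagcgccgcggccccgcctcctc
Aldoc: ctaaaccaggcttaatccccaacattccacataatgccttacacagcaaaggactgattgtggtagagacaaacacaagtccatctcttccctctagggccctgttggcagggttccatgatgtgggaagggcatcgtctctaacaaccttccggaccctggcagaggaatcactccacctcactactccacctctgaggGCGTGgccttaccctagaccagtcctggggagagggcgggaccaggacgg
Pfkl: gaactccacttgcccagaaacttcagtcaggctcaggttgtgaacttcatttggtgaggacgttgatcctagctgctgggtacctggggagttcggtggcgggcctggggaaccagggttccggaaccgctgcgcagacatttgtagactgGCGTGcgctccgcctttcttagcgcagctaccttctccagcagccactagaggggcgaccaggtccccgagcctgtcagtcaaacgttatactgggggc
Pgk1: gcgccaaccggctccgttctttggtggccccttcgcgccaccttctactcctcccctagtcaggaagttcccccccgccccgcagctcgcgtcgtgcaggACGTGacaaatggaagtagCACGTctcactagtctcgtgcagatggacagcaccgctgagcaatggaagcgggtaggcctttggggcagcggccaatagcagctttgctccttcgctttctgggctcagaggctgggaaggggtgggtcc
Sucla2: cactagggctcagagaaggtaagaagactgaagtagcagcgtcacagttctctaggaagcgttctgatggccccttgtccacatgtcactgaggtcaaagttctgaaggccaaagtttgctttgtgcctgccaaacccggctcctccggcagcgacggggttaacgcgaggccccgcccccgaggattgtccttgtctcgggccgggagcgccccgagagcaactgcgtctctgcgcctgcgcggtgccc
Ldhb, Aldoc and Pfkl had 1 GCGTG each in these stretches and Pgk1 had 2 ACGTG, 1 on each strand, with first bases 150 and 131 bases before the start, counted on the printed strand. Sucla2 had neither. Windows of 300 bases, from 250 before to 50 after a start, were available for 34 of the 36 measured genes. ACGTG or GCGTG was found in 43 of the 56 windows of listed genes (76.8%), against 43.8% of all 32851 windows. The 56 windows belong to 37 genes, with the 3 not measured on the arrays. Some genes had several windows, in part overlapping (Ogdh, Pfkm, Eno1 and Aldoa among them). The windows are therefore not independent, and these shares are not shares of genes. ACGTG alone was in 44.6% and 19.6%, GCGTG in 58.9% and 32.4%, and the E-box CACGTG, which contains ACGTG on both strands, in 12.5% and 7.15%. Among windows of measured genes alone, either core was in 6 of 8 windows of genes higher in A3, 6 of 7 of genes lower in A3 (those 6 are overlapping or neighbouring windows of Ogdh) and 27 of 36 of genes not called, and Tpi1 and Eno2, both higher, had neither in their 250 upstream bases. A match of letters describes the window and is not a binding site.

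Phosphofructokinase commits sugar to glycolysis, and 2 of its 3 genes were called higher in A3. The liver-type gene Pfkl read 11.87 and 11.85 log2 in the induced and control arrays of A3, against 10.68 and 11.05 in A1 and 11.62 and 11.32 in A4, a difference of 0.69 log2 (SE 0.14, adjusted p = 0.0222). The platelet-type gene Pfkp read 11.59 and 11.63 in A3, against 10.68 and 10.80 in A1 and 11.29 and 11.05 in A4, a difference of 0.66 log2 (SE 0.11, adjusted p = 0.0115). In both genes A3 did not overlap the other arrays, and 2 of 3 probe sets of each were called, with the dimmest at -0.27 (Pfkl) and -0.37 log2 (Pfkp) and not called. The muscle-type gene Pfkm read 8.23 in both A3 arrays, against 8.23 and 8.34 in A1 and 8.53 and 8.55 in A4, with a difference of -0.18 log2 that did not pass (SE 0.10, adjusted p = 0.306). Pfkm lies on chromosome 15, where the median difference of 407 expressed genes (mean of at least 6 log2) was -0.278 log2. Pfkfb3 and Pfkfb4, whose products make and remove the activator fructose 2,6-bisphosphate, differed by -0.45 and 0.11 log2 and were not called.

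Of the measured genes from aldolase to pyruvate kinase, 4 were called higher in A3 (Aldoc, Tpi1, Pgk1 and Eno2) and 0 lower. Aldoc, the brain-type aldolase, read 9.26 and 9.14 log2 in the induced and control arrays of A3, against 8.05 and 7.84 in A1 and 9.23 and 8.52 in A4. The A1 arrays were lowest and the induced A4 array lay between the A3 arrays. The difference was 0.79 log2 (SE 0.14, adjusted p = 0.0120). The second Aldoc probe set averaged 3.32 log2 and differed by 0.04. Aldoa, the aldolase of most tissues, differed by 0.13 log2 on its brightest probe set and by 0.18 to 0.39 on its other 4, none called.

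Tpi1, triose phosphate isomerase, read 12.93 and 12.85 log2 in A3, against 12.04 and 12.15 in A1 and 12.60 and 12.39 in A4. Its difference was 0.60 log2 (SE 0.11, adjusted p = 0.0141), 2 of 3 probe sets were called and the groups did not overlap. Pgk1, which makes the first ATP of glycolysis, read 13.44 and 13.37 log2 in A3, against 12.79 and 12.84 in A1 and 13.22 and 13.09 in A4, and differed by 0.42 log2 (SE 0.10, adjusted p = 0.0389). A3 was again highest in both arrays, and the other 2 Pgk1 probe sets differed by 0.37 and 0.36 without passing. The neuronal enolase Eno2 read 4.61 and 4.62 log2 in A3, against 3.84 and 4.24 in A1 and 4.04 and 4.12 in A4, a difference of 0.55 log2 (SE 0.11, adjusted p = 0.0232) on a dim probe set. The muscle enolase Eno3 lay below all other arrays in A3, with a difference of -0.34 log2 that did not pass (SE 0.10, adjusted p = 0.0671). Hk1 and Hk2 (hexokinases), Pgam1 (phosphoglycerate mutase) and Pkm differed by 0.03 to 0.15 log2 and were not called. Ldhb, Tpi1 and Eno2 lie on chromosome 6, where the median of 451 expressed genes was 0.0241 log2.

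**Figure D2:**
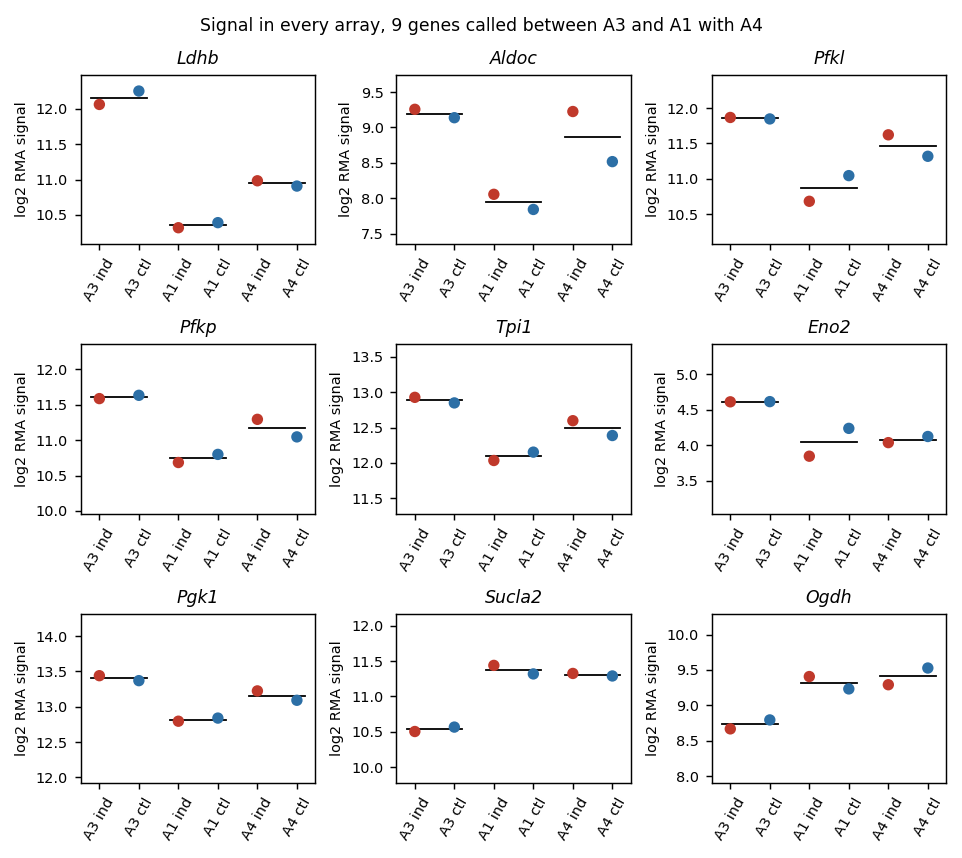
Log2 RMA signal (vertical axis, a range of its own in each panel) of the 9 called genes in all 6 arrays, red for induced (ind) and blue for control (ctl), with bars at the clone means. In Ldhb, Pfkl, Pfkp, Tpi1, Pgk1 and Eno2 both A3 arrays lie above all others, in Sucla2 and Ogdh below them, and in Aldoc the induced A4 array (9.23) lies between the A3 arrays (9.26 and 9.14).

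The transporters at both ends of the pathway gave mixed results. Slc2a1 (Glut1) brings glucose into most cells and differed by 0.44 log2 on its brightest probe set (SE 0.15, adjusted p = 0.124), while its other 2 probe sets were called at 0.49 and 0.66. Slc2a3 (Glut3), a high-affinity glucose transporter, differed by 0.27 log2 on a probe set averaging 12.8 log2 (SE 0.10, adjusted p = 0.144) and by 1.02 and 1.05 on 2 dimmer ones, both called. On the probe sets used here to represent these genes neither was called, so the count of 7 depends on the choice of probe set. Of all 82 listed probe sets, 18 were called higher and 2 lower, beside 1752 and 2557 of the 45037 probe sets in all. Several of the 18 report the same gene, among them 4 of Ldhb, so they are not independent. Slc16a3 (Mct4), a lactate exporter, read 9.09 and 9.23 log2 in A3, against 8.49 and 8.18 in A1 and 9.24 and 9.23 in A4. It passed the F test over all clones (adjusted p = 0.0152) but not the test of A3 (0.38 log2, SE 0.12, adjusted p = 0.0960), and its A3 and A4 arrays overlapped. Slc16a1 (Mct1) differed by -0.08 log2.

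Pyruvate dehydrogenase feeds the TCA cycle, and its kinases Pdk1 and Pdk3 switch it off. Pdk1 differed by 0.35 log2 on its brightest probe set (SE 0.16, adjusted p = 0.239), with 1 of 4 probe sets called at 0.55, and Pdk3 by 0.24 log2 (adjusted p = 0.208). In the complex itself, Pdha1, Pdhb, Dlat and Dld differed by 0.04, 0.03, -0.07 and -0.18 log2, with 0 called. In the pentose phosphate pathway, Pgd, Taldo1 and Tkt differed by -0.11, 0.12 and 0.06 log2, also with 0 called. The 95% intervals of these 7 differences, on the brightest probe sets, reached no farther than 0.43 log2 from 0. A second Pdha1 probe set, averaging 10.8 log2, differed by 0.26 log2 with an interval of 0.25 to either side, and was not called.

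The TCA cycle held both genes that were lower in A3. Sucla2, the ADP-forming subunit of succinyl-CoA ligase, read 10.50 and 10.57 log2 in the induced and control arrays of A3, against 11.44 and 11.32 in A1 and 11.32 and 11.29 in A4. The difference was -0.81 log2 (SE 0.10, 0.571-fold, adjusted p = 0.00326), with A1 and A4 close together, and the other 2 Sucla2 probe sets averaged 2.83 and 3.10 log2. Ogdh, the first component of 2-oxoglutarate dehydrogenase, which makes the succinyl-CoA that Sucla2 uses, read 8.67 and 8.79 log2 in A3, against 9.41 and 9.23 in A1 and 9.29 and 9.53 in A4. It differed by -0.63 log2 (SE 0.12, adjusted p = 0.0143), without overlap. Neighbouring steps were not called: citrate synthase Cs differed by 0.32 log2 (adjusted p = 0.0879) with its other 2 probe sets at -0.19 and -0.14, Idh3a by 0.27, Fh1 by -0.0029 and Mdh2 by -0.03.

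The calls of Ldhb and Sucla2 held when any single array or clone was left out, with differences of 1.21 to 1.80 and of -0.88 to -0.74 log2. The other 7 each lost the call at least once. Pfkl, Pfkp and Tpi1 did so without either A3 array, without the induced A1 array and without clone A1 as a whole, when their differences were 0.39, 0.44 and 0.40 log2. Aldoc lost it without the control A3 array (0.62), without the induced A1 array (0.74) and without clone A1 (0.33), and Ogdh without either A3 array (-0.68 without the control and -0.59 without the induced one) or the induced A1 array (-0.55). Eno2 kept it in 2 and Pgk1 in 1 of 8 such fits. The count of higher listed genes fell to 1 without clone A1, and it also fell without either A3 array and without the induced A1 array. Over all genes, fewer were called higher in each of these fits too. The shares of all genes in the same fits are not given here, so these falls cannot be set against them.

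Between clones A1 and A4, no gene of the list was called. Over all genes 0% were called higher in A1 and 0.0165% lower, and of the 36 listed genes 0 were called in either direction. By sign, 20 of the 23 genes of transport, glycolysis, lactate production and pyruvate dehydrogenase kinases were lower in A1 than in A4, with a median of -0.34 log2, against 6 of 13 in the rest of the list (median 0.0455) and a median of 0.00998 over all genes. The differences largest in size, picked after their values were seen, were Aldoc (-0.92 log2, SE 0.16, adjusted p = 0.617) and Slc16a3 (-0.90 log2, SE 0.14, adjusted p = 0.429). The clone means of 18 of the 36 genes ran in the order A1, A4, A3 (50%, against 24.9% of all genes), 14 of them among the 23. Both A3 arrays lay above the others in 13 genes (36.1%, against 23.1% of all genes) and below them in 5 (13.9%, against 18.5%). The F test over the clones called 8 of the 36 (22.2%, against 6.84% of all genes), namely Pfkl, Pfkp, Aldoc, Tpi1, Ldhb, Slc16a3, Ogdh and Sucla2.

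Isozyme balance was followed as the log2 ratio of a pair within each array, which shows unequal change between arrays and not which isozyme has more mRNA. Of the 11 pairs planned, 9 could be formed, since both with Eno1 had no value. The Ldha/Ldhb ratio was 1.21 and 1.00 in the induced and control arrays of A3, against 2.55 and 2.51 in A1 and 2.06 and 2.03 in A4. A3 lay below all other arrays, with a difference of -1.18 log2 (SE 0.06). Its two-sided exact permutation p was 0.0667, the smallest that 2 against 4 arrays allow, and 0.3 after adjustment over 9 pairs. The Pfkm/Pfkl ratio was -3.63 and -3.62 in A3, against -2.45 and -2.71 in A1 and -3.10 and -2.77 in A4, a difference of -0.87 log2 (SE 0.18) with the same exact permutation p.

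The Pfkp/Pfkl ratio differed by only -0.04 log2 (SE 0.11) between A3 and the other clones, and both genes were called higher in A3. Aldoc/Aldoa differed by 0.65 log2 (SE 0.20) and Slc16a3/Slc16a1 by 0.46 (SE 0.10), with values of A3 and A4 overlapping in both. Slc2a1/Slc2a3, Hk2/Hk1, Pfkfb4/Pfkfb3 and Pdk3/Pdk1 differed by 0.17, -0.11, 0.56 and -0.11 log2, with SEs of 0.24, 0.28, 0.44 and 0.29. With the mean over all probe sets of each gene, the Aldoc/Aldoa difference was 0.18 and that of Slc2a1/Slc2a3 -0.15. On induction no pair reached the smallest exact permutation p that 3 against 3 arrays allow, 0.1, and the lowest was 0.4 (Slc2a1/Slc2a3, 0.15 log2).

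**Figure D3:**
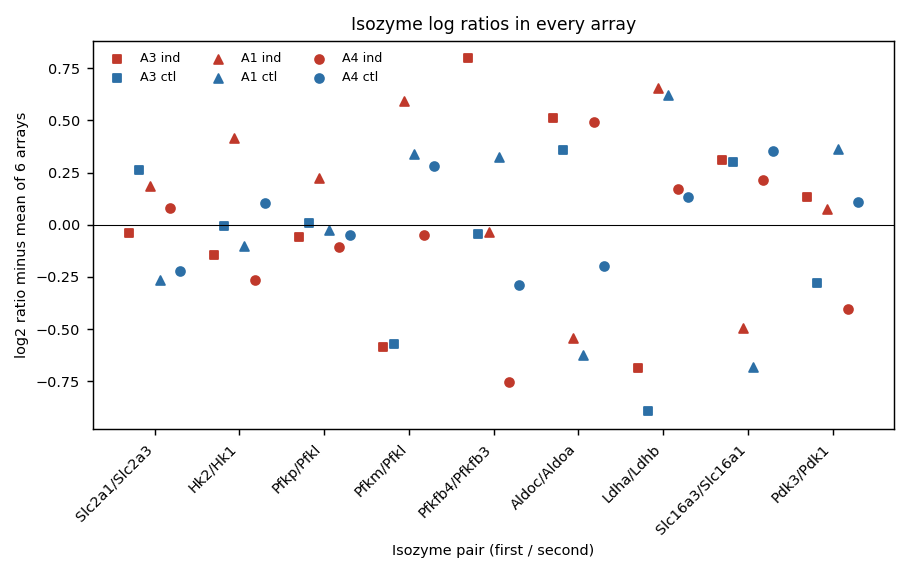
Log2 ratio of 9 isozyme pairs in each array (vertical axis, as the difference from that pair's mean over 6 arrays), squares for A3, triangles for A1 and circles for A4, red for induced (ind) and blue for control (ctl). For Ldha/Ldhb and Pfkm/Pfkl both A3 squares lie below all other points, and for Pfkp/Pfkl the induced A1 array lies highest, at 0.22.

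Induction of WBSCR1 changed 0 of the 36 genes by limma, as it did 0% of all probe sets, and 0 of the 82 listed probe sets had an unadjusted p under 0.05. The transgene itself was not analysed here. Over all probe sets 209 were higher and 467 lower at that unadjusted level. Mean changes of the listed genes ran between -0.16 (Eno2) and 0.35 log2 (Aldoc), with a median of 0.0317 beside 0.00281 over all genes. In the fit of condition alone, the 95% interval lay within 1 log2 of 0 for 34 genes and within 0.5 for 23. The SE of that fit includes the spread between clones. With clone as a block the SE was 0.098 instead of 0.55 log2 for Ldhb and 0.094 instead of 0.29 for Sucla2. For Pdhb it was 0.090 with the block and 0.085 without. Changes smaller than these intervals could go undetected in the fit of condition alone. By clone, the listed genes had a median change of 0.0351 (A1), -0.0188 (A3) and 0.0781 log2 (A4).

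Among the positive changes with the smallest unadjusted p, the range of the clone changes exceeded the mean change in each gene. Aldoc averaged 8.85 ± 0.69 log2 in induced and 8.50 ± 0.65 in control arrays (SD, n = 3), with changes of 0.21 (A1), 0.12 (A3) and 0.71 log2 (A4). Slc2a1 averaged 12.33 ± 0.20 in induced and 12.17 ± 0.47 in control arrays, with changes of 0.35, -0.29 and 0.40 log2 in the same order of clones. Dld, the lipoamide dehydrogenase, changed by 0.30, -0.06 and 0.10 log2, and Mdh2, mitochondrial malate dehydrogenase, by 0.20, -0.04 and 0.02. Each of these except Aldoc was negative in A3. On the negative side, Eno2 changed by -0.39, -0.0028 and -0.09 log2, Hk2 by 0.17, -0.08 and -0.25, Pdk3 by -0.19, 0.06 and -0.02 and Pfkm by -0.11, 0.01 and -0.03.

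Of the 36 genes, 2 rose in all 3 clones (Aldoc and Eno3) and 1 fell in all of them (Eno2). The share of all genes with such agreement is not given here, so this count cannot be set against it. On the brightest probe sets, the only changes of at least 0.5 log2 in a clone were those of Aldoc in A4 and of Pfkfb3 in A3. Dimmer probe sets of Slc2a3 (0.65 and 0.66), Pfkp (0.60) and Tpi1 (0.53) also changed by that much in A4. Another Pfkp probe set changed by 0.63 in A1 and -0.78 in A4, and the dim Aldoc probe set by 0.52 in A3. Pfkfb3 read 5.58 log2 induced and 6.14 control in A3. In A1 and A4 Pfkfb3 changed by 0.27 and 0.44 log2. Pdk1 changed by 0.10 (A1), -0.35 (A3) and 0.49 log2 (A4). With 1 pair of arrays a clone, these differences between clones could not be tested. The adjusted p of every listed gene was 0.999942, and clone as a block also gave 0 calls. With the block, 1 of the 82 listed probe sets had an unadjusted p under 0.05, beside 1539 of 45037 in all. It was the brightest of Aldoc (limma with the block, unadjusted p = 0.0285).

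**Figure D4:**
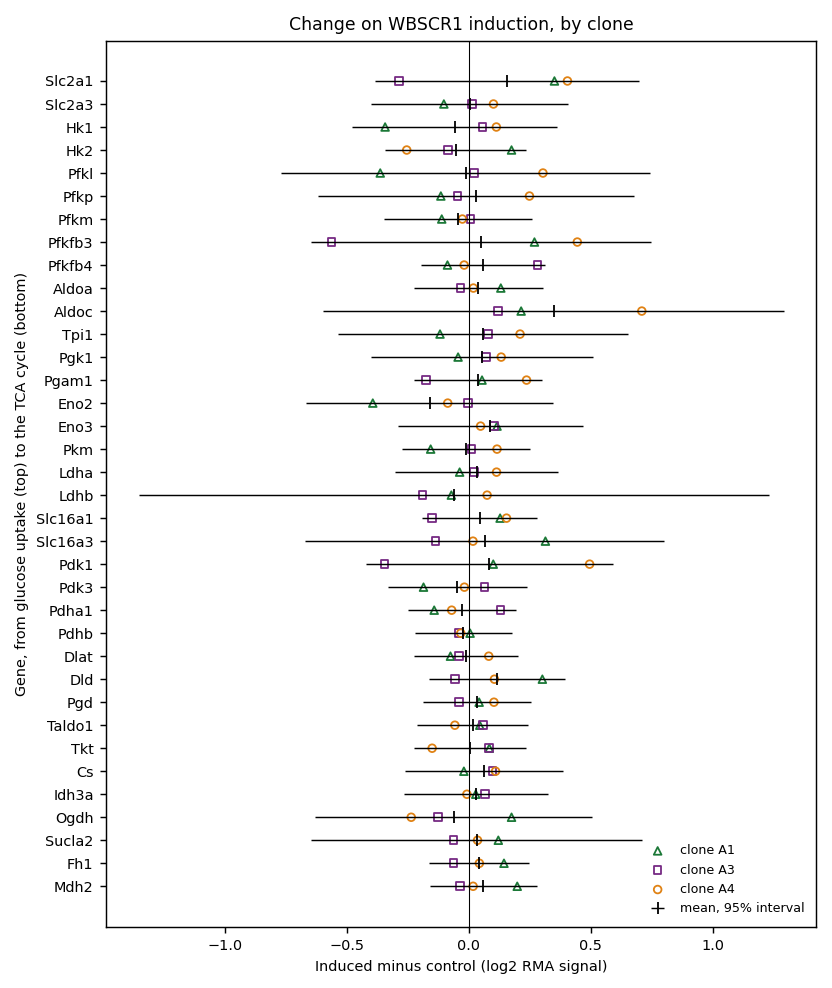
Induced minus control log2 RMA signal on the horizontal axis for 36 genes from glucose uptake at the top to the TCA cycle at the bottom. Open symbols are the clones, black ticks the mean with its 95% interval from limma, and all intervals include 0. Aldoc in A4 (0.71) and Pfkfb3 in A3 (-0.56) lie farthest out.

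Other genes of the same pathways were counted beside the list. Of 56, 50 were measured, and 4 were higher and 4 lower in A3, beside 5.13% and 6.32% of all genes. Idh2, mitochondrial NADP isocitrate dehydrogenase, read 10.06 and 10.04 log2 in the induced and control arrays of A3, against 8.76 and 8.85 in A1 and 9.33 and 9.08 in A4 (1.05 log2, SE 0.11). The testis-type lactate dehydrogenase Ldhc differed by 0.87 log2 on a dim probe set that averaged 5.06 log2. Pyruvate carboxylase Pcx differed by 0.77 and Rpe, of the pentose phosphate pathway, by 0.46 log2. The gluconeogenic bisphosphatases Fbp1 and Fbp2 differed by -0.73 and -0.49, the GTP-forming succinyl-CoA ligase subunit Suclg2 by -0.43 and the mitochondrial pyruvate carrier Mpc1 by -0.39 log2. The median of the 50 was 0.0204 log2.

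Other measurements were set beside the clone difference, and only some of them separated A3 from A1 and A4. For the counts that follow, 5.13% of all genes were called higher and 6.32% lower in A3, 9651 of 18193 were higher in A1 than in A4, and 9328 averaged higher in induced than in control arrays. Of 13 measured hypoxia-responsive genes outside the pathways, 5 were higher in A3 (Bnip3 1.35, Egln3 0.89, P4ha1 0.82, Egln1 0.60 and Mxi1 0.41 log2) and 1 was lower (Bhlhe40, -0.64), with a median of 0.0112 log2. They were lower in A1 than in A4 in 12 of 13, with a median of -0.337 log2, and averaged higher in induced than in control arrays in 12 of 13, with 0 called and clone medians of 0.299 (A1), -0.0811 (A3) and 0.271 log2 (A4). Of 8 primed epiblast markers, 3 were higher in A3 (Otx2 2.88, Zic2 1.22 and Lefty2 0.74 log2). The 8 averaged 7.42 to 7.67 log2 in A3 arrays, against 6.78 to 6.98 in A1 and A4 arrays. Their median difference was 0.239 log2. The members not called lay between -0.18 (Sfrp2) and 0.33 log2 (Dnmt3b), and the defining marker Fgf5 averaged 3.99 log2. Of 8 primitive endoderm markers, averaging 4.95 to 5.01 log2 in A3 arrays and 5.27 to 5.62 in A1 and A4 arrays, 4 were lower in A3 (Dab2, Sox7, Gata4 and Gata6). Sox7, Gata4 and Gata6 averaged only 5.19 to 5.47 log2. The members not called lay between -0.36 (Sox17) and 0.17 log2 (Ttr), and the median of the 8 was -0.546 log2. Of 6 trophectoderm markers, with a median of 0.0595 log2, Tfap2c was called higher (1.10 log2), and the other 5 lay between -0.08 (Eomes) and 0.12 log2 (Cdx2) and were not called. The 18S ribosomal RNA control read 7.27 and 6.61 log2 in the induced and control arrays of A3, against 7.03 and 5.67 in A1 and 5.99 and 5.99 in A4. The 3' minus 5' signal of the beta-actin control was 0.295 and 0.316 log2 in A3, in the same order. It was higher in A1 (0.451 and 0.403) and A4 (0.427 and 0.422). That of the Gapdh control overlapped between clones, at 0.078 and -0.007 in A3, 0.054 and 0.104 in A1 and 0.061 and 0.088 in A4. The part of these in the differences of the listed genes was not tested. A group of 63 probe sets, with induced minus control at least 1 log2 in A1 and at most -1 log2 in A4, held 0 listed genes.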

How the data were processed

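Gene expression was measured on 6 Affymetrix whole-genome mouse arrays. The deposited log2 values were computed by the authors by RMA as implemented in Bioconductor's affy (background correction, quantile normalization, probe summary), which sets arrays on one distribution and can hide a shift common to most genes. Its version was not given in the sources used. No further normalization was applied. Groups, clones and replicate numbers came from the sample labels, where replicates 1, 2 and 3 are clones A1, A3 and A4. The 64 control probe sets were left out of all tests. Gene symbols came from the platform annotation, which gave 1 symbol for 34945 of 45037 probe sets, several for 932 and none for 9160. Promoter windows came from RefSeq (GRCm38.p6).

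Tests used limma 3.58.1 (lmFit, eBayes; R 4.3.3), two-sided, with Benjamini-Hochberg adjustment over all 45037 probe sets and a threshold of 0.05. Induction was fitted with condition alone, after the study's methods. Clones were fitted with condition and clone, with an F test and the contrasts A3 minus the mean of A1 and A4 and A1 minus A4. Counts over genes take the probe set with the highest mean of each of 18193 symbols. Isozyme ratios were compared by exact permutation tests over arrays. Both fits were tested on simulated data carrying known changes. Replicate numbers pair arrays of the same clone by their labels. Deviations from the group means correlated at r = 0.670 for A3, 0.313 for A1 and 0.290 for A4. Those of the induced A4 and control A1 arrays (0.348) and of the induced A1 and control A4 arrays (0.369) were higher than for A1 or A4. These values do not favour the labelled pairing of A1 and A4 over the swapped one. The changes by clone and the contrast of A1 with A4 therefore rest on the labels. So do the F test, the fit with clone as a block, and the SEs, p-values and calls of A3 against A1 and A4. The sizes of the A3 differences do not, since they take the mean over the same A1 and A4 arrays under either pairing.

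Named with their values were the listed genes called between A3 and the other clones (up to 10 in each direction), those called between A1 and A4, the 4 higher and 4 lower on induction with the smallest unadjusted p, and those with a change of at least 0.5 log2 in any clone. Genes outside this rule were named to account for all members. The members, lists and tests were chosen with earlier results of these data known. Alternatives were the block, the methods' t-test, a mean of at least 5 log2, further normalizations, other eBayes options, array weights, other thresholds, 1 probe set for each symbol, and leaving out arrays or clones. Leaving out the control A4 and induced A1 arrays together was added after seeing the data. Figures used matplotlib 3.10.9 (Python 3.11.15).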

Additional observations from a re-analysis of the deposited data

How the results depend on the processing

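No value reversed its sign past a threshold under the alternatives tried. The replicate block and the paired form of the methods' t-test each gave 0 calls on induction, among all probe sets and among the listed genes, and the median change of the listed genes was 0.0317 log2 with the block; the block changed no call. Without the control A4 and induced A1 arrays together, and with no condition term, the listed genes higher in A3 numbered 1 and those lower 1, the F test called 0 of them and 15 genes in all, and over all genes 239 were higher and 259 lower in A3 and 0 lower in A1 than in A4. With the trend and robust options of eBayes, 12 listed genes were higher in A3. The share of all genes higher in A3 under these options is not given here, so the 12 cannot be set against it. Over all genes, 1 was higher and 5 lower in A1 than in A4 with these options. At an adjusted p under 0.1, 1472 genes were higher in A3 and the F test called 1957. With 1 probe set for each symbol and the threshold of 0.05, the F test called 2001 genes, against 1245 with adjustment over all probe sets. With the mean over all probe sets, the isozyme differences of A3 were 0.176 for Aldoc/Aldoa, -0.561 for Pfkm/Pfkl, 0.0849 for Pfkp/Pfkl and -0.152 for Slc2a1/Slc2a3.

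Leaving out single arrays or clones gave 1 to 7 listed genes higher and 1 to 2 lower in A3, 0 to 9 called by the F test, 329 to 665 genes higher and 316 to 793 lower in A3 over all genes, 3 to 1336 by the F test, and 0 to 3 lower in A1 than in A4. On induction the calls were 0 to 0 and the median change of the listed genes -0.0372 to 0.0707 log2. Isozyme differences of A3 ranged from 0.519 to 0.891 (Aldoc/Aldoa), -0.214 to 0.0113 (Hk2/Hk1), -1.29 to -1.08 (Ldha/Ldhb), -0.314 to 0.0955 (Pdk3/Pdk1), 0.141 to 0.985 (Pfkfb4/Pfkfb3), -0.984 to -0.770 (Pfkm/Pfkl), -0.0739 to 0.0360 (Pfkp/Pfkl), 0.282 to 0.627 (Slc16a3/Slc16a1) and 0.0187 to 0.317 (Slc2a1/Slc2a3). Fewer arrays leave fewer degrees of freedom; other causes were not tested. Where 1 array was left of a clone, it was assumed to vary like the others. With 6 arrays, and Eno2 near the dim end of the signal, small differences were not detectable.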
